A study of Mus musculus with 8 samples.

Results

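Oxidative phosphorylation was followed through the 103 protein-coding genes, of 31053 gene rows, whose symbols begin mt-Nd, mt-Co, mt-Atp, mt-Cytb, Nduf (without the Ndufaf assembly factors), Sdh, Uqcr, Cox4 to Cox8 or Atp5. The mitochondrial genome encodes 13 of them and the nuclear genome 90. By complex, 45 belong to complex I, 8 to complex II, 9 to complex III, 21 to complex IV and 20 to complex V. The prefixes also took in 6 genes that are not structural subunits (Sdhaf1 to Sdhaf4, Atp5s and Cox7a2l). RNA came from retinal pigment epithelium (RPE) eyecups of C57/Bl6 mice at postnatal day 11 (P11), and gave 4 wild-type libraries (Bbs8+/+) and 4 Bbs8 knockout libraries (Bbs8-/-), with no treatment. The labels number the libraries of each genotype as biological replicates, and by the study's methods every replicate was a separate animal. The knockout is not restricted to the RPE, so neighbouring cells lack the gene as well, and the homogenised eyecup holds choroid and sclera beside the RPE. Expression was read by QuantSeq 3′ mRNA sequencing, which counts reads near the 3′ end of polyadenylated transcripts.

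The respiratory chain sits in the inner mitochondrial membrane. Complexes I and II pass electrons from NADH and succinate to coenzyme Q, complex III passes them on to cytochrome c and complex IV to oxygen, and complex V uses the resulting proton gradient to make ATP. Complexes I, III, IV and V are built from subunits of both genomes, whereas complex II is wholly nuclear encoded. The mitochondrial messengers are cut from long transcripts of either strand of the mitochondrial DNA, and the RPE is known as a tissue that relies heavily on oxidative phosphorylation.

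The libraries held between 1636725 and 2884983 gene counts, so that 3 counts corresponded to 1.04 to 1.83 CPM, which are counts scaled to the library total. Ttc8, the gene symbol of Bbs8, lay at 14.6 to 21.6 CPM in Bbs8+/+ and at 2.29 to 9.70 CPM in Bbs8-/- libraries (log2 fold change -1.95, edgeR quasi-likelihood FDR 2.74e-06). RPE marker transcripts were present in all 8 libraries. Their summed level overlapped, at 21644 to 22364 CPM in Bbs8+/+ and 22154 to 22786 CPM in Bbs8-/-, but single markers changed, as 2 of 16 rose (Otx2 and Krt18) and 3 fell (Mitf, Tyrp1 and Pmel) at FDR 0.05 in edgeR, and 3 and 3 in DESeq2. Xist, made from the inactive X chromosome of female cells, and Y-linked transcripts were both found in every library. Xist lay at 640 to 746 CPM in Bbs8+/+ and 570 to 625 CPM in Bbs8-/-, and 4 Y-linked genes summed to 59.0 to 64.9 and 108 to 120 CPM. Since Xist is known from female and Y-linked transcripts from male tissue, a library may hold RNA of more than 1 animal, which was not tested, and p-values are read here as measuring the spread between libraries. Neither level overlapped between genotypes, so the genotypes and the balance of sex-linked transcripts cannot be told apart in these libraries.

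Among the mitochondrially encoded transcripts, 4 of the most deeply counted fell by 11.9% to 21.2% in Bbs8-/- eyecups, while the median of the nuclear subunits lay near that of all genes. Of 98 members with enough counts to test, 5 fell and 0 rose at FDR 0.05 (edgeR quasi-likelihood test with Benjamini-Hochberg adjustment over 13813 genes). That is 5.10% of the tested members falling, where 1.14% of all tested genes fell, 1.10% rose and 2.24% did either. At an unadjusted p under 0.05, 9 members were higher and 15 lower, together 24.5% against 13.0% of all tested genes. DESeq2, which gave an adjusted p for 85 of the tested members, called 0 higher and 4 lower. The members that fell were mt-Cytb, mt-Nd5, mt-Nd4 and mt-Co1, and 1 nuclear gene, Cox7c. Hence 4 of 11 tested mitochondrial genes fell against 1 of 87 nuclear genes (1.15%). The median log2 fold change was -0.18 over the mitochondrial genes, -0.03 over the nuclear genes and -0.0041 over all genes tested. The mitochondrial median moved to -0.086 without Bbs8+/+ replicate 2 and to -0.087 without Bbs8-/- replicate 2, and the nuclear one ran from -0.044 to -0.014 when 1 library was left out. In RNA from a whole eyecup, fewer cells of one type and less RNA per cell cannot be told apart.

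Abundant transcripts were measured more precisely than others. Among the 53 genes with a mean of at least 1000 CPM, 22.6% fell and 30.2% rose at the same threshold, and among the 47 nuclear ones 17.0% fell. The share of mitochondrial genes that fell is therefore to be read against these values as well as against the background of all genes. All 4 that fell are among the 6 mitochondrial transcripts over 900 CPM, so 4 of 6 is the share to set beside the 17.0%.

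**Figure D1:**
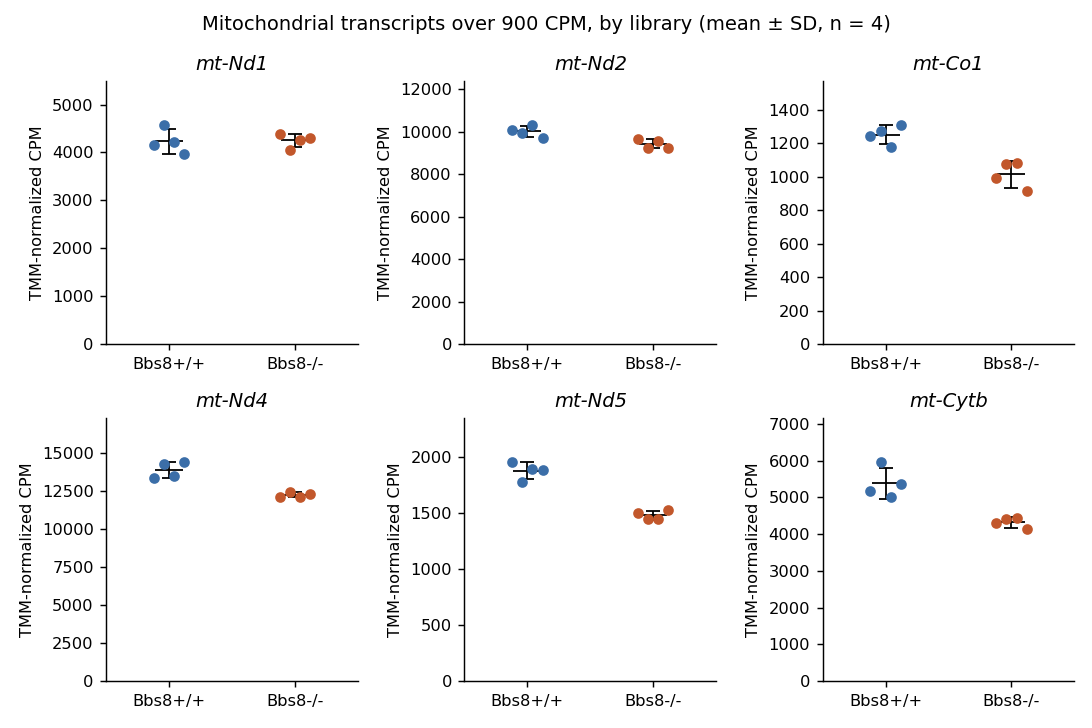
Normalized level (CPM, linear axis from 0) of the 6 mitochondrial transcripts over 900 CPM in each of the 8 libraries, with the mean and SD of 4 libraries per genotype. The Bbs8-/- points of mt-Co1, mt-Nd4, mt-Nd5 and mt-Cytb all lie below the Bbs8+/+ points, whereas those of mt-Nd1 overlap.

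mt-Cytb encodes cytochrome b, the only subunit of complex III made in the mitochondrion (chrM:14145-15288, plus strand). It lay at 5173, 5975, 5018 and 5373 CPM in the 4 Bbs8+/+ libraries and at 4292, 4422, 4439 and 4127 CPM in the 4 Bbs8-/- libraries. Every Bbs8-/- library was below every Bbs8+/+ library, with a log2 fold change of -0.32 (SE 0.0363, edgeR FDR 6.01e-12).

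mt-Nd5 encodes one of the proton-pumping membrane subunits of complex I (chrM:11742-13565, plus strand). It was found at 1962, 1775, 1896 and 1889 CPM in Bbs8+/+ against 1502, 1449, 1449 and 1528 CPM in Bbs8-/-. The genotypes did not overlap, and the log2 fold change was -0.34 (SE 0.0438, edgeR FDR 7.00e-10).

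mt-Nd4, another membrane subunit of complex I (chrM:10167-11544, plus strand), was counted at 13375, 14284, 13490 and 14440 CPM in Bbs8+/+. The Bbs8-/- libraries held 12133, 12449, 12090 and 12331 CPM. All 4 were below the lowest Bbs8+/+ library, with a smaller log2 fold change than in mt-Cytb or mt-Nd5, of -0.18 (SE 0.0279, edgeR FDR 5.92e-07).

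mt-Co1 encodes the catalytic subunit of complex IV (chrM:5328-6872, plus strand). It was at 1243, 1274, 1179 and 1310 CPM in Bbs8+/+ and at 992, 1076, 1083 and 912 CPM in Bbs8-/-. The genotypes did not overlap (log2 fold change -0.30, SE 0.0494, edgeR FDR 3.30e-06).

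mt-Nd1 and mt-Nd2, the protein-coding genes nearest the start of the long heavy-strand transcript, did not pass the threshold. mt-Nd1, a complex I subunit at the junction of its membrane and peripheral arms (chrM:2751-3707), lay at 4158, 4576, 4220 and 3971 CPM in Bbs8+/+ and 4388, 4060, 4270 and 4299 CPM in Bbs8-/-. These values overlapped, and the log2 fold change of 0.01 had an unadjusted 95% interval of -0.06 to 0.08 (edgeR FDR 0.960), which leaves out falls of the size seen in mt-Cytb. mt-Nd2, a further membrane subunit of complex I (chrM:3914-4951), was at 10096, 9949, 10320 and 9710 CPM in Bbs8+/+ and 9674, 9247, 9583 and 9254 CPM in Bbs8-/-. Its genotypes did not overlap, but the log2 fold change of -0.09 missed the threshold (edgeR FDR 0.116). mt-Nd6, the only member transcribed from the light strand (chrM:13552-14070), had 37.8 to 45.7 CPM in Bbs8+/+ and 33.4 to 43.9 CPM in Bbs8-/-. These overlapped, and the log2 fold change of -0.22 did not pass (edgeR FDR 0.593). The last bases of mt-Nd5 overlap mt-Nd6 on the other strand, and the strand setting of the counting is not given in the sources used here.

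Ratios within a library do not depend on how libraries are scaled, so each of these transcripts was also set against mt-Nd1. The log2 ratio of mt-Cytb to mt-Nd1 dropped from 0.35 ± 0.081 in Bbs8+/+ to 0.02 ± 0.083 in Bbs8-/- (SD, n = 4 each). For mt-Nd5 it was -1.17 ± 0.14 and -1.52 ± 0.038, and for mt-Co1 -1.76 ± 0.11 and -2.07 ± 0.15. For mt-Nd4 it was 1.72 ± 0.099 and 1.53 ± 0.064. None of these 4 ratios overlapped between genotypes, whereas those of mt-Nd2 (1.25 ± 0.083 and 1.15 ± 0.035) and mt-Nd6 (-6.62 ± 0.17 and -6.86 ± 0.22) did. A ratio does not say which partner moved. mt-Nd1 was the deeply counted transcript with the least change in these same data, so the ratios restate the fold changes above and are no separate support. Shares of all mitochondrial counts depend in turn on the total, and the summed mitochondrial level itself fell by 10.6%. As such a share mt-Cytb took 14.7% ± 0.806 in Bbs8+/+ against 13.2% ± 0.388 in Bbs8-/-, without overlap. That of mt-Nd1 was 11.5% ± 0.529 against 13.0% ± 0.407, higher in Bbs8-/- without overlap, although its CPM overlapped. The shares of mt-Nd4 (37.8% ± 1.00 and 37.3% ± 0.733), mt-Nd5 (5.13% ± 0.320 and 4.52% ± 0.140), mt-Co1 (3.41% ± 0.129 and 3.09% ± 0.233) and mt-Nd2 (27.3% ± 1.13 and 28.8% ± 0.497) overlapped.

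**Figure D2:**
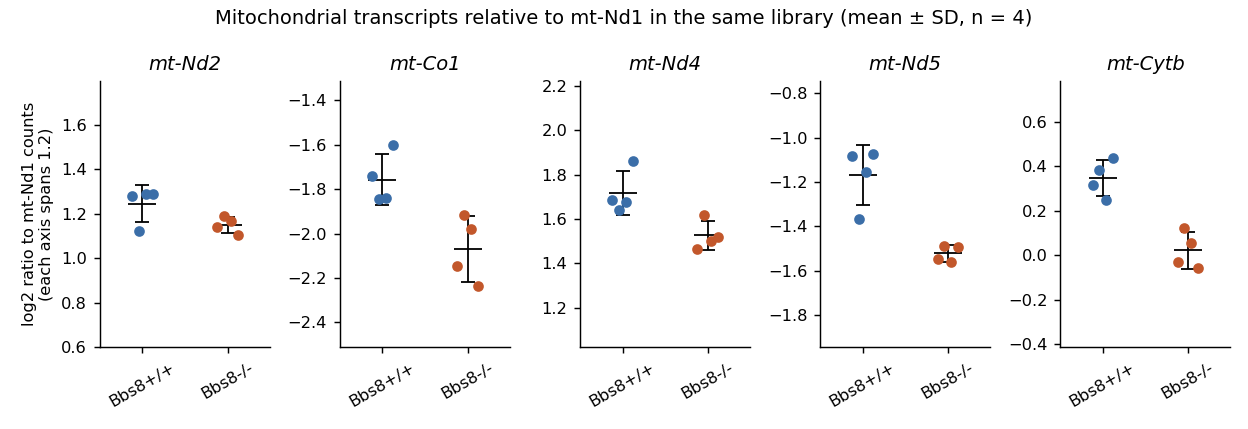
Log2 ratio of the counts of 5 mitochondrial transcripts to those of mt-Nd1 in the same library, with the mean and SD of 4 libraries per genotype; each panel spans the same height on its own axis. The genotypes are apart for mt-Co1, mt-Nd4, mt-Nd5 and mt-Cytb and overlap for mt-Nd2.

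The other mitochondrial genes had almost no counts. mt-Co2, mt-Co3, mt-Atp6 and mt-Nd3 held between 1 and 19 counts per library, mt-Atp8 held 1 count in Bbs8+/+ replicate 1 and 2 counts in Bbs8-/- replicate 2, and mt-Nd4l was at 0 in all libraries. Their log2 fold changes, where tested, were -0.02 for mt-Co2, 1.06 for mt-Co3, 0.57 for mt-Atp6 and -0.42 for mt-Nd3. All 4 had overlapping genotypes and an edgeR FDR of 0.484 or more, and changes in them were not detectable at this depth. The 6 transcripts over 900 CPM accounted for 99.8% of all mitochondrial counts in both genotypes.

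The low counts can be set beside the sequence. A nuclear copy of part of the mitochondrial genome lies on chromosome 1 of mm10, annotated as a row of unprocessed pseudogenes on the minus strand. The annotated copies there cover 7 of the 13 genes, wholly or in part, at 99.7% identity or more. Reads that align equally well in both places have no unique position. Reads with several alignments made up 26.1% ± 0.0789 of aligned reads in Bbs8+/+ against 26.0% ± 0.459 in Bbs8-/- (SD, n = 4 each), and only uniquely aligned reads entered the counts. Of the 100-base windows in the last 400 bases of each transcript, 97.6% to 100% were found in another gene for mt-Co1, mt-Co2, mt-Co3, mt-Atp6, mt-Nd3 and mt-Nd4l. The share was 0 for mt-Nd1, mt-Nd4, mt-Nd5, mt-Nd6, mt-Cytb and mt-Atp8, and 9.97% for mt-Nd2. The mean level of the former 6 ran from 0 to 1133 CPM with a median of 2.96, and that of the latter 6 without shared windows from 0.184 to 13074 CPM. mt-Atp8 was at the floor without a shared window, but windows were sought in annotated transcripts only. It lies between mt-Co2 and mt-Atp6 (chrM:7766-7969) and overlaps the latter. The copies of those genes are annotated side by side (chr1:24614885-24615565 and chr1:24613974-24614651). Whether the bases between them hold a copy of mt-Atp8 was not tested. The part of shared sequence in the low counts was not tested.

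The stretches below come from the GENCODE M21 transcripts of mm10 and are written 5′ to 3′ along each gene. The last copied bases of mt-Co2 (chrM:7634-7693, plus strand) and of its copy Gm28661 (chr1:24614885-24614944, minus strand) have 0 differences.
mt-Co2: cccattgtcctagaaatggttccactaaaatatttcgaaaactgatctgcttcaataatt
Gm28661: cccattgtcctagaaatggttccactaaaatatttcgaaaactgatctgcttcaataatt
mt-Co1 (chrM:6390-6449, plus strand) and its partial copy Gm29216 (chr1:24616129-24616188, minus strand) differ here by the 1 base in capitals, A4T counted from the first base printed, which was the only difference over 483 aligned bases.
mt-Co1: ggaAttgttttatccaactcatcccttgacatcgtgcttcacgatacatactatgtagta
Gm29216: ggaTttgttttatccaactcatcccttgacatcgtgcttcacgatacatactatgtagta
The copy of mt-Nd4, Gm28439, ends within the gene after 876 bases, and the capitals mark the bases of mt-Nd4 (chrM:11013-11072, plus strand) beyond it.
mt-Nd4: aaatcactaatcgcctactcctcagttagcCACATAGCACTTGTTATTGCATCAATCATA
The last bases of mt-Cytb (chrM:15229-15288) and mt-Nd5 (chrM:13506-13565), both of which fell, have no annotated copy and are shown for comparison.
mt-Cytb: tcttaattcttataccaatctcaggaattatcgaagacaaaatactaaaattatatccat
mt-Nd5: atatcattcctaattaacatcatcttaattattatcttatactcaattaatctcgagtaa

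Thus of the transcripts that fell, mt-Cytb, mt-Nd5 and mt-Nd4 have unshared 3′ ends, and mt-Co1 was counted only as far as its reads could be placed uniquely.

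**Figure D3:**
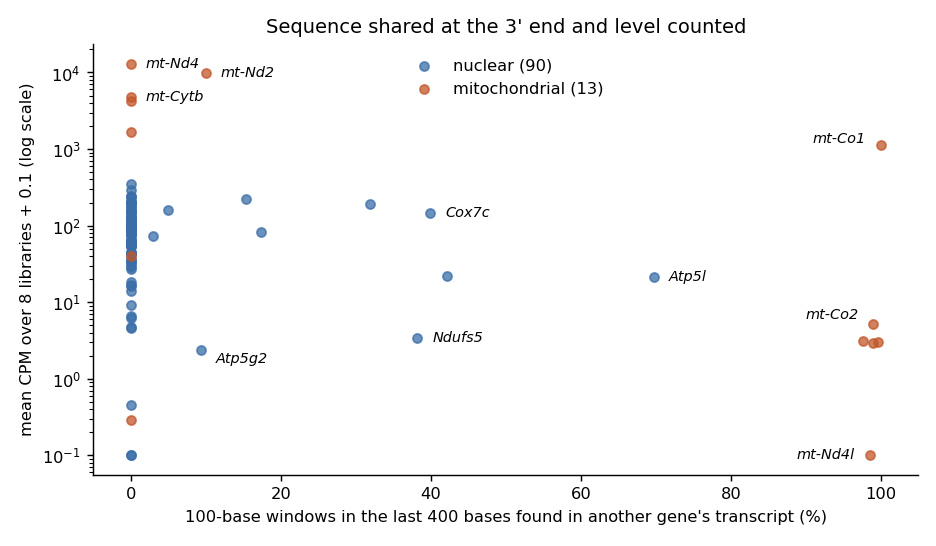
Mean level over 8 libraries (CPM plus 0.1, log axis) against the percent of 100-base windows in the last 400 bases of the transcript that occur in another gene, for 90 nuclear and 13 mitochondrial genes. The 6 mitochondrial genes at the right, with over 95% of windows shared, lie at 1133 CPM or below; mt-Nd4 and mt-Cytb, with none shared, lie at the top left.

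Summed over all 13 mitochondrial genes, the level reached 36064, 37894, 36173 and 36748 CPM in Bbs8+/+ against 33028, 32755, 32967 and 32505 CPM in Bbs8-/-. The lowest Bbs8+/+ library was above the highest Bbs8-/- library, and the mean sum fell by 10.6%. The 90 nuclear genes summed to 8556 ± 180 CPM in Bbs8+/+ and 8489 ± 203 CPM in Bbs8-/-, which overlapped. As shares of all gene counts, the mitochondrial genes took 3.68% ± 0.0988 and 3.27% ± 0.0589, without overlap, and the nuclear genes 0.858% ± 0.0136 and 0.846% ± 0.0185, with overlap. Each library held 4.29 ± 0.0769 mitochondrial counts per nuclear count in Bbs8+/+ against 3.87 ± 0.108 in Bbs8-/- (SD, n = 4 each), again without overlap. Leaving out Gm42418, an abundant transcript with 15.2% to 18.3% of all counts, gave mitochondrial shares of 4.41% ± 0.102 and 3.95% ± 0.0417, which did not overlap either.

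**Figure D4:**
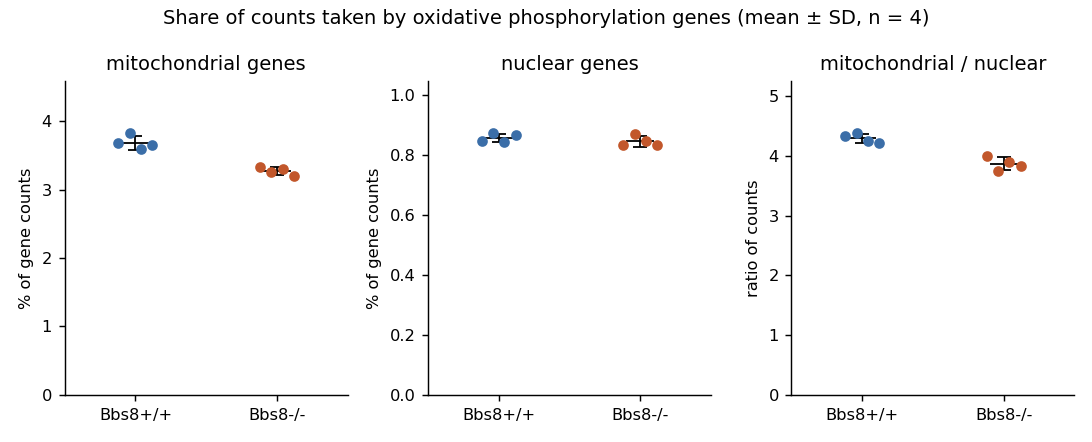
Share of gene counts taken by the 13 mitochondrial and the 90 nuclear oxidative phosphorylation genes, and the ratio of the former to the latter, in each library with the mean and SD of 4 libraries per genotype (axes from 0). The mitochondrial share and the ratio are lower in all 4 Bbs8-/- libraries, and the nuclear share overlaps.

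The whole eyecup also differed in other transcripts. Summed lens markers were 224 to 264 CPM in Bbs8+/+ and 629 to 669 CPM in Bbs8-/- (12 of 18 tested rose and 0 fell in edgeR, while DESeq2 gave an adjusted p for 7 and called 6 higher), and skeletal muscle markers 4214 to 4466 and 4633 to 5016 CPM (3 of 25 rose and 0 fell, 4 and 0 in DESeq2). Fibroblast markers were 34214 to 35944 and 26850 to 28019 CPM (0 of 8 rose and 3 fell in both tools). In edgeR Col1a1, Col1a2 and Col3a1 fell. Dcn, Lum and Dpt had log2 fold changes of 0.09, 0.12 and 0.01, and Pdgfra and Fbln1 of -0.25 and -0.11. Melanocyte markers were 13881 to 14591 and 11437 to 12063 CPM (0 of 10 rose and 6 fell in both). Tyrp1 and Pmel, which fell, are also in the RPE list, and Dct alone fell from 10361 to 8721 CPM. Sox10, Kit, Oca2 and Gpr143 did not pass (log2 fold changes -0.05, -0.03, -0.22 and -0.16). Macrophage markers were 408 to 436 and 484 to 530 CPM (1 of 10 rose and 0 fell), and pericyte markers 1319 to 1385 and 1179 to 1252 CPM (0 of 11 rose and 2 fell). Photoreceptor markers were 584 to 644 CPM in Bbs8+/+ and 520 to 584 CPM in Bbs8-/-, with a mean sum that fell by 10.7% and ranges that met only at their ends (1 of 16 rose and 2 fell). Endothelial markers were 909 to 962 and 924 to 1015 CPM (1 of 10 rose and 0 fell) and red cell markers 5158 to 5724 and 5634 to 6493 CPM (2 of 6 rose and 0 fell), both with overlap. No listed marker with a row was at 0 in all libraries. The part of these cell types in the mitochondrial difference was not tested.

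Of the 90 nuclear genes, 87 could be tested, 38 with a positive and 49 with a negative log2 fold change, and 82 lay within 0.5 of no change. The median standard error of a nuclear member was 0.11 on the log2 scale, which limits how small a change could be called. Genotypes did not overlap for 3 genes that were higher and 3 that were lower in Bbs8-/-. This is 3.45% in each direction, near the 3.62% and 3.76% of all tested genes. An unadjusted p under 0.05 was found for 19 (21.8%), against 13.0% of all tested genes. Not tested were Cox8c and a second row of Atp5o, both at 0 in all libraries, and Cox7b2, which held from 0 to 3 counts.

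**Figure D5:**
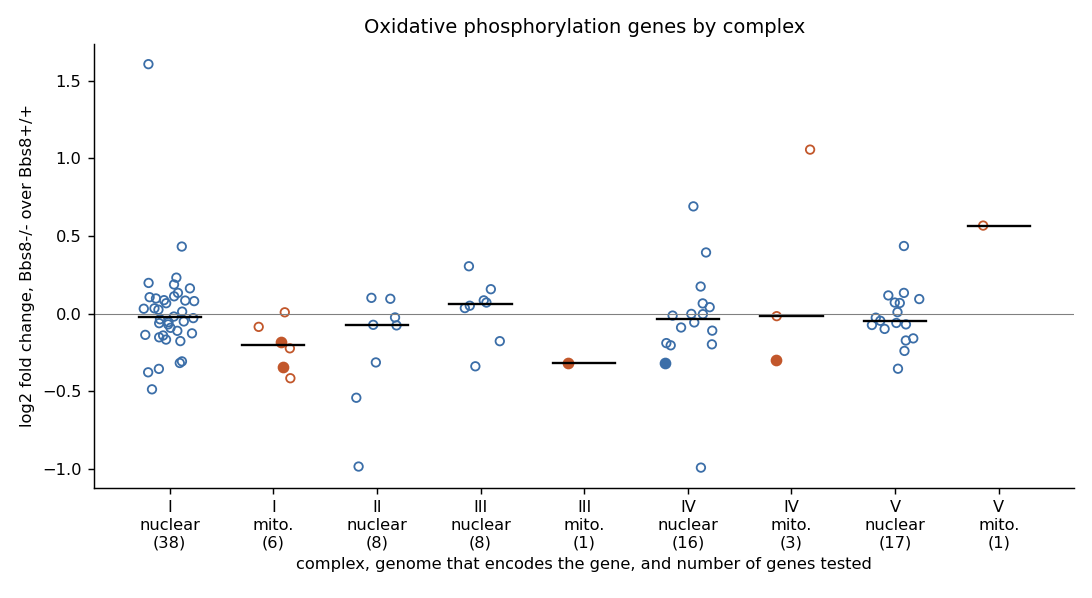
Log2 fold change (Bbs8-/- over Bbs8+/+) of the 98 tested genes, grouped by complex and by the genome that encodes them; filled points passed FDR 0.05 and bars are group medians. The filled points are mt-Nd4 and mt-Nd5 in complex I, mt-Cytb in complex III, and mt-Co1 and the nuclear Cox7c in complex IV, all below 0.

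Complex I, the NADH dehydrogenase, had 38 nuclear members tested, of which 0 rose and 0 fell (4 higher and 4 lower at an unadjusted p under 0.05, and 0 by DESeq2 at FDR 0.05). They summed to 3158 ± 80.1 CPM in Bbs8+/+ against 3168 ± 48.2 CPM in Bbs8-/-, with overlap. Ndufa2, an accessory subunit and the nuclear member of this complex with the highest mean count, had a log2 fold change of 0.07 (edgeR FDR 0.809). Ndufa4, which was later assigned to complex IV, was at 39.2, 46.8, 41.6 and 44.7 CPM in Bbs8+/+ and 24.3, 38.1, 34.9 and 25.2 CPM in Bbs8-/-. The genotypes did not overlap, but the log2 fold change of -0.49 (SE 0.166) did not pass (edgeR FDR 0.110). Ndufs5, an accessory subunit, had the highest log2 fold change, 1.61 (SE 0.597, edgeR FDR 0.168), from 6, 2, 3 and 5 counts in Bbs8+/+ and 3, 8, 19 and 11 counts in Bbs8-/-. These counts overlapped, and 38.2% of its 3′ windows also occur in BC002163. The X-linked accessory subunit Ndufa1, named for its place after its values were seen, had 64.9 to 86.9 and 43.7 to 76.6 CPM and a log2 fold change of -0.38 (edgeR FDR 0.111). The Y-linked transcripts given above differed between the genotypes too, and their part in this value was not tested.

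Complex II, succinate dehydrogenase, which also serves the citric acid cycle, had 0 of 8 members past the threshold (0 higher and 2 lower at an unadjusted p under 0.05, and 0 by DESeq2). Sdhb, its iron-sulfur subunit, had a log2 fold change of 0.10 (edgeR FDR 0.754). Sdhd, a membrane anchor, had 24, 27, 16 and 18 counts in Bbs8+/+ and 11, 4, 4 and 15 in Bbs8-/-. In CPM the genotypes overlapped, and the log2 fold change of -0.99 (SE 0.405) did not pass (edgeR FDR 0.237).

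In complex III the single mitochondrial gene, mt-Cytb, fell, whereas 0 of 8 nuclear members passed (1 higher and 0 lower at an unadjusted p under 0.05, and 0 by DESeq2). The nuclear members summed to 833 ± 32.0 CPM in Bbs8+/+ and 863 ± 26.1 CPM in Bbs8-/-, with overlap. Uqcrc1, a core subunit, was at 45.2, 51.1, 47.6 and 49.9 CPM in Bbs8+/+ and 57.6, 57.4, 64.2 and 60.2 CPM in Bbs8-/-. It did not overlap, and its log2 fold change of 0.30 did not pass (edgeR FDR 0.299). Uqcrfs1, the Rieske iron-sulfur protein, lay at 28.0 to 38.8 CPM in Bbs8+/+ and 26.6 to 27.7 CPM in Bbs8-/-, also without overlap (log2 fold change -0.34, edgeR FDR 0.417). Uqcrh, the hinge protein, had a log2 fold change of 0.07 (edgeR FDR 0.768).

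In complex IV, cytochrome c oxidase, 1 of 16 tested nuclear members fell and 0 rose (3 higher and 3 lower at an unadjusted p under 0.05). The gene was Cox7c, a small structural subunit (chr13:86044816-86046904, minus strand), at 140, 186, 147 and 180 CPM in Bbs8+/+ and 133, 149, 126 and 117 CPM in Bbs8-/-. Bbs8-/- replicate 2 was above Bbs8+/+ replicates 1 and 3, so that the genotypes overlapped. The log2 fold change was -0.32 (SE 0.0918, edgeR FDR 0.0335). This call was lost in 8 of 16 alternative analyses, among them DESeq2 and those without Bbs8+/+ replicate 2 or 4 or without Bbs8-/- replicate 1, 3 or 4, and over all 16 its log2 fold change ran from -0.39 to -0.25 and its FDR from 0.0114 to 0.252. Cox7c also shares 39.9% of its 3′ windows with other annotated genes, first among them Gm10012.

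Complex IV is known for subunits that come in tissue-specific pairs. Cox4i2, the form known from lung and oxygen-sensing cells, had 15, 13, 11 and 24 counts in Bbs8+/+ and 2, 9, 9 and 5 in Bbs8-/-. Its CPM did not overlap, yet the log2 fold change of -0.99 (SE 0.472) missed the threshold (edgeR FDR 0.350). Its common partner Cox4i1 was at 210 to 230 CPM in Bbs8+/+ and 234 to 276 CPM in Bbs8-/-, without overlap (log2 fold change 0.17, edgeR FDR 0.269). As a share of both, Cox4i2 made up 2.73%, 2.33%, 2.18% and 3.84% in Bbs8+/+ and 0.488%, 1.68%, 1.73% and 0.962% in Bbs8-/-. All shares in Bbs8-/- were below those in Bbs8+/+, and they rest on the few counts given.

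The forms known from heart and skeletal muscle, Cox6a2, Cox7a1 and Cox8b, did not pass the threshold. Cox6a2 had 30.7 to 43.5 CPM in Bbs8+/+ and 38.2 to 55.9 CPM in Bbs8-/- (log2 fold change 0.39, edgeR FDR 0.204), and Cox7a1 had log2 fold change 0.69 (edgeR FDR 0.367). Cox8b had a log2 fold change of -0.19 (edgeR FDR 0.631). Their ubiquitous counterparts Cox6a1, Cox7a2 and Cox8a had log2 fold changes of -0.01, -0.11 and -0.09. The summed skeletal muscle markers given above were higher in Bbs8-/-, and their part in these values was not tested. Cox6b2, known from testis, had a log2 fold change of -0.20 and its partner Cox6b1 of -0.20 (edgeR FDR 0.697 and 0.294). Over the 16 alternatives the log2 fold change of Cox6b2 ran from -0.40 to -0.03 and that of Cox7a1 from 0.44 to 1.09. Cox7b, another small subunit and X-linked, had a log2 fold change of -0.0041 (unadjusted 95% interval -0.26 to 0.25), and Cox7a2l, a supercomplex factor, one of 0.07.

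In the pair of Ndufa4 and its hypoxia-responsive relative Ndufa4l2, the share of Ndufa4l2 was 24.2%, 16.8%, 29.4% and 25.6% in Bbs8+/+. In Bbs8-/- it was 41.2%, 34.8%, 36.7% and 38.6%, above every Bbs8+/+ library. Ndufa4l2 itself had 9.44 to 17.3 CPM in Bbs8+/+ and 15.9 to 20.4 CPM in Bbs8-/-, which overlapped (log2 fold change 0.43, SE 0.246, edgeR FDR 0.475). Neither gene of the pair passed the threshold, and no test was made of the share.

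Complex V, the ATP synthase, had 0 of 18 tested members past the threshold (1 higher and 1 lower at an unadjusted p under 0.05, and 0 by DESeq2). Its nuclear members summed to 2386 ± 72.3 CPM in Bbs8+/+ and 2346 ± 53.6 CPM in Bbs8-/-, with overlap. Atp5a1, the alpha subunit of the catalytic head, lay at 334 to 365 CPM in Bbs8+/+ and 330 to 363 CPM in Bbs8-/- (log2 fold change -0.03, edgeR FDR 0.921). The 3 genes of the c subunit, which forms the rotor ring, had log2 fold changes of -0.05 (Atp5g1), 0.01 (Atp5g2) and -0.17 (Atp5g3), with edgeR FDR 0.909, 0.997 and 0.226. Atp5g3 made up 74.5% ± 2.32 of their counts in Bbs8+/+ and 72.7% ± 2.74 in Bbs8-/-, with overlap. Atp5l, the g subunit, had 14.6 to 21.5 and 21.0 to 26.1 CPM and a log2 fold change of 0.44 (edgeR FDR 0.372). Of its 3′ windows, 69.8% occur in other genes. Atp5s, a coupling factor, had 1.87 to 10.5 and 2.61 to 5.96 CPM (log2 fold change -0.36, edgeR FDR 0.831).

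By complex, with the genes of both genomes together, the median log2 fold change was -0.04 for complex I, -0.07 for complex II, 0.05 for complex III, -0.02 for complex IV and -0.04 for complex V, beside -0.0041 over all genes. Summed levels, in which deeply counted transcripts weigh most, fell by 7.8% in complex I, 16.6% in complex III and 9.2% in complex IV, each without overlap. Those of complexes II and V fell by 4.1% and 1.7%, with overlap. The median of complex II counts its 4 assembly factors, and over the 4 structural subunits alone it was -0.19. With the assembly factors kept, it moved from -0.07 to -0.20 without Bbs8-/- replicate 2. Leaving out 1 library also moved the median of complex I to between -0.067 and -0.025, of complex III to between 0.028 and 0.089, of complex IV to -0.070 (without Bbs8-/- replicate 3) and of complex V to -0.0027 (without Bbs8+/+ replicate 4). Split by genome, the median was -0.20 over the mitochondrial and -0.02 over the nuclear members of complex I. In complex III it was -0.32 (mt-Cytb alone) and 0.06. Complex IV had a median of -0.02 over its mitochondrial and -0.04 over its nuclear members. The former is the value of mt-Co2, which had few counts, while the summed mitochondrial level of complex IV fell by 18.6% without overlap.

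Other genes of the pathway mostly did not pass. Assembly factors had 0 of 42 past the threshold (median log2 fold change -0.04) and further electron carriers and subunits that the prefixes leave out, among them cytochrome c and the complex III subunit Cyc1, 0 of 7 (median 0.04). Genes of mitochondrial transcription, RNA processing and translation had 0 of 22 (median -0.15), and the mitochondrial ribosome 0 of 76 (median 0.06). Tfam, which packages mitochondrial DNA and starts its transcription, is named for its role after its values were seen. It lay at 19.0, 24.4, 29.4 and 29.3 CPM in Bbs8+/+ and 31.5, 31.8, 33.0 and 20.5 CPM in Bbs8-/-, and these overlapped (log2 fold change 0.19, SE 0.193, edgeR FDR 0.763). Nuclear regulators of mitochondrial biogenesis had 0 of 10 past the threshold (median -0.13) and membrane carriers 0 of 11 (median 0.10). At an unadjusted p under 0.05, 1 higher and 2 lower were found among assembly factors, 2 and 0 among these carriers and subunits, 0 and 2 among genes of mitochondrial gene expression, 7 and 1 in the ribosome, 0 and 0 among the regulators and 1 and 1 among the membrane carriers. In that order this is 7.14%, 28.6%, 9.09%, 10.5%, 0% and 18.2% of each list, against 13.0% of all tested genes. DESeq2, which gave an adjusted p for 92 of these 168 genes, called 0 of them. In the citric acid cycle 0 of 17 rose and 1 fell, Fh1, the fumarate hydratase, at 23.8 ± 5.85 CPM in Bbs8+/+ against 13.7 ± 2.51 CPM in Bbs8-/- (SD, n = 4 each, log2 fold change -0.78, edgeR FDR 0.0445). DESeq2 called 0 of the 16 genes of that list to which it gave an adjusted p.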

How the data were processed

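The authors trimmed the QuantSeq reads with BBDuk, aligned them to mm10 with STAR and counted them per gene with htseq-count, and the deposited files hold raw counts of uniquely aligned reads, 1 file per library. Summary lines for ambiguous or multiply aligned reads stayed out of totals and tests. The strand setting is not given in the sources used here. Symbols and positions came from GENCODE M21, which matched 30934 of 31053 gene rows. A further 13 genes that match the prefixes had no row.

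A gene was tested where 4 or more libraries reached 1 CPM. The test was the two-sided quasi-likelihood F test in edgeR 4.0.16, run in R 4.3.3 (TMM, genotype only, Benjamini-Hochberg over 13813 genes, FDR 0.05). The study's methods name edgeR generalized linear models at that FDR, and its filter also used multi-mapped reads, which could not be repeated here. CPM are TMM-normalized and not scaled to length, so the highest mean below serves only to choose genes and says nothing of their relative expression. Values after ± are SD. Intervals of fold changes are unadjusted. Sums, shares and ratios were given no test. Counting floors cover counting error only, since no molecular identifiers were named. The procedure was checked on simulated counts.

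Genes named were Ttc8, all mitochondrial members, members past the threshold, paralogous isoforms, and per complex the nuclear member with the highest mean, largest rise and largest fall, except where stated. The members and lists were chosen with earlier results of these data known. Alternatives were RLE factors, library totals, TMM without Gm42418 and mitochondrial genes, filterByExpr or no filter, DESeq2 1.42.0, a replicate block, thinned counts, FDR 0.01 and leaving out each library. Samples at other ages were not analysed here.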

Additional observations from a re-analysis of the deposited data

Results flagged for a closer look

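In groups of 4 libraries, single values that stood far from the other 3 were looked for in 148 groups, of which chance alone would give about 7.4, and 6 were found. mt-Atp8 was at 0.431 CPM in Bbs8+/+ replicate 1 and at 1.04 CPM in Bbs8-/- replicate 2, with 0 in the other libraries of each genotype. mt-Nd3 was at 0.522 CPM in Bbs8-/- replicate 2, where the others lay at 3.03 to 3.27 CPM. Cox7b2 was at 0.467 CPM in Bbs8+/+ replicate 3, with 0 in the others. These 4 values are each 1 or 2 counts. Uqcrfs1 was at 27.7 CPM in Bbs8-/- replicate 2, beside 26.6 to 26.7 CPM in the others. The log2 ratio of mt-Nd2 to mt-Nd1 was 1.12 in Bbs8+/+ replicate 2, beside 1.28 to 1.29 in the others, and this library makes the genotypes overlap in that ratio.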

How the results depend on the processing

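The falls of mt-Cytb, mt-Nd5, mt-Nd4 and mt-Co1 were called in all 16 alternative fits, and their log2 fold changes ranged from -0.35 to -0.26, -0.37 to -0.32, -0.20 to -0.16 and -0.33 to -0.25. The number of members called lower was 5, and 4 to 6 in the alternatives. It was 4 with FDR 0.01. Ndufb3 was called in addition without Bbs8-/- replicate 2, and Ndufa1 without Bbs8-/- replicate 3. With the replicate number as a block, 4 members were lower and Cox7c was not called. Same-numbered libraries deviated together with correlations of -0.055 to 0.018 over 6714 genes, so the numbers were not taken to pair them.

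The median of the mitochondrial members, -0.18, was -0.14 with no filter on low counts and -0.22 for members with a mean of at least 10 CPM, an alternative chosen after seeing the data. It ran from -0.20 to -0.086 when 1 library was left out, nearest to 0 without Bbs8+/+ replicate 2 or Bbs8-/- replicate 2. Leaving out 1 library gave -0.044 to -0.014 for the nuclear members, -0.067 to -0.025 for complex I, 0.028 to 0.089 for complex III, -0.20 to -0.034 for complex II, -0.070 to -0.021 for complex IV and -0.049 to -0.0027 for complex V. Complex I was at -0.076 with thinned counts, and complex II at -0.19 without non-subunits. Signs turned only where no change had been called (FDR at least 0.887 under the alternative): Atp5g2 -0.0026 and mt-Nd1 -0.0011 with library totals, and Cox7b 0.00012 with filterByExpr and 0.00038 with DESeq2. Leaving out 1 library gave -0.37 to 0.43 for Atp5g2, -0.62 to 0.30 for Atp5s, -0.055 to 0.036 for Cox6a1, -0.019 to 0.14 for Cox7a2l, -0.064 to 0.075 for Cox7b, -0.21 to 0.015 for Cox8a, -0.39 to 0.24 for mt-Co2, -0.020 to 0.051 for mt-Nd1 and -0.78 to 0.25 for mt-Nd3. The cause of these shifts was not tested.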
